A study of Rattus norvegicus with 36 samples.

Results

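Zdhhc2, Snx10, Ttc39a and Hdc are 4 genes that were chosen because their liver RNA was much higher at the highest doses of a flame retardant and because none of them belongs to drug metabolism. They were measured by 5 probe sets, of 31042 tested, and stand among 14217 genes named on the array. Snx10 has 2 of the 5 probe sets and each of the others has 1, and 0 probe sets were shared between one of these genes and another gene. The livers came from male Harlan Sprague Dawley rats, 7 weeks old at the start, that received PBDE47 (2,2',4,4'-tetrabromodiphenyl ether) in corn oil by oral gavage for 5 consecutive days and were killed 1 day after the last dose. There were 6 groups of 6 animals: corn oil alone (vehicle) and the low doses of 0.0485 and 0.485 mg/kg, a middle dose of 4.85 mg/kg, and the high doses of 48.5 and 485 mg/kg. All groups shared the strain, the diet and the corn oil gavage, and no genetic change was recorded in any of them. RNA of the left liver lobe from each animal was hybridised to 1 Affymetrix array, which gives 36 arrays, and a level below is a log2 value normalised by the robust multi-array average method (RMA), so that a difference of 1 is a doubling. Because the genes were selected on 48.5 and 485 mg/kg against vehicle, their values at those doses are given as a description, without a test.

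Each of the 4 genes has a different role. Zdhhc2 encodes a DHHC palmitoyltransferase, an enzyme that attaches palmitate to cysteines of target proteins and so helps to fix them to membranes. Snx10 encodes a sorting nexin, a protein that binds phosphoinositide lipids on endosomes and, in osteoclasts, acts with the vacuolar proton pump. Ttc39a encodes a protein with tetratricopeptide repeats whose function is little known. Hdc encodes histidine decarboxylase, which makes histamine from histidine and is best known from mast cells, stomach enterochromaffin-like cells and hypothalamic neurons.

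The RefSeq promoter table held no entry for Zdhhc2. The promoters of Snx10, Ttc39a and Hdc are printed so that the DNA around their start sites can be read beside the values. Each is 300 bases of the RefSeq promoter table for the GRCr8 assembly, from 250 bases before the start site to 50 after it, 5′ to 3′ on the gene's own strand. The Snx10 promoter lies at chr4:81943073-81943372 on the plus strand, that of Ttc39a at chr5:129394044-129394343 on the plus strand, and that of Hdc at chr3:134318655-134318954 on the minus strand. The Ttc39a window is that of the table's start site, which lies inside the annotated span of the gene and not at its outer end. Capitals mark matches, on either strand, to any of 8 short motifs: GCGTG (the core bound by the aryl hydrocarbon receptor), TGACNNNGC (the antioxidant response element core) and TGAGTCA (bound by AP-1 factors). The others are AGTTCA, one site of nuclear receptors, and AGGTCA, another of that kind, as well as GGGCGG (the GC box), TATAAA (the TATA box) and CCAAT, all of them searched on both strands.
Snx10: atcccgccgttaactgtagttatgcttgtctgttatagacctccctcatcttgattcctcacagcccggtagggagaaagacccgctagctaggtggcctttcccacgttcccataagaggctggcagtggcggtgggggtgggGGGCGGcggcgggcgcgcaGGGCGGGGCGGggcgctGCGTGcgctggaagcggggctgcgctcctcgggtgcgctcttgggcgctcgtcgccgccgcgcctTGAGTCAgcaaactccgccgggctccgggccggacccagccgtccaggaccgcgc
Ttc39a: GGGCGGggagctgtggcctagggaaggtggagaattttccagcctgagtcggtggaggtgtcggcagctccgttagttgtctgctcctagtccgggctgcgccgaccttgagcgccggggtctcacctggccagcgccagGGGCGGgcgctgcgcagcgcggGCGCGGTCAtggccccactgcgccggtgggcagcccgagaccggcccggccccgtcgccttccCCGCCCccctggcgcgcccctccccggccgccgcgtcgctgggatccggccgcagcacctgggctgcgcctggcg
Hdc: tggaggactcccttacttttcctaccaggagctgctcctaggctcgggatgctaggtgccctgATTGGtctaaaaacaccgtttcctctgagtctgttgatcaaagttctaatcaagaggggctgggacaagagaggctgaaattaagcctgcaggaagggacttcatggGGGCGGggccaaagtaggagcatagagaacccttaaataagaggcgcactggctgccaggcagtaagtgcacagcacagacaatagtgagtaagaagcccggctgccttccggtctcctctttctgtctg

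In the Snx10 promoter, 69.0% of the bases were G or C, and it held GCGTG with its first base at -70 from the start site, TGAGTCA at -5 and GGGCGG at -106, -87 and -82, the last pair of which overlap each other. The Ttc39a promoter was 76.0% G or C and held TGACNNNGC on the opposite strand at -88 and GGGCGG at -250 and -110, and at -25 on the opposite strand. At 52.7% G or C, the Hdc promoter held GGGCGG at -80 and CCAAT on the opposite strand at -187. No nuclear receptor site and no TATAAA was found in any of the 3 windows. Among 27457 rat promoters of the same length, 31.1% held GCGTG, 12.2% TGACNNNGC, 4.53% TGAGTCA, 14.4% AGTTCA, 15.7% AGGTCA, 34.9% GGGCGG, 14.3% TATAAA and 37.7% CCAAT, and the median content of G and C was 52.3%. A match describes the letters only, and the arrays hold no measurement of binding.

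Zdhhc2 was the largest of the 4 changes at the top dose. Its level ran from 6.05 to 6.70 with a median of 6.25 in vehicle livers, from 6.18 to 6.56 (median 6.34) at 0.0485 mg/kg and from 6.12 to 6.79 (median 6.36) at 0.485 mg/kg. It ran from 6.37 to 7.05 (median 6.63) at 4.85 mg/kg, from 7.41 to 7.71 (median 7.55) at 48.5 mg/kg and from 8.68 to 9.54 (median 9.13) at 485 mg/kg. The lower 4 groups overlapped, all 6 animals at 48.5 mg/kg lay above every animal of those groups, and all 6 at 485 mg/kg lay above every animal at 48.5 mg/kg. Mean levels were 7.57 ± 0.10 at 48.5 mg/kg and 9.14 ± 0.30 at 485 mg/kg, against 6.30 ± 0.23 in vehicle (SD, n = 6 each). The difference from vehicle was 1.27 ± 0.12 (SE) at 48.5 mg/kg, or 2.41-fold, and 2.84 ± 0.12 at 485 mg/kg, or 7.17-fold. Zdhhc2 thereby ranked 14th by size of increase among 14217 named genes at 48.5 mg/kg and 5th at 485 mg/kg, and the step from 48.5 to 485 mg/kg measured 1.57 ± 0.12.

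Snx10 made its largest step between 4.85 and 48.5 mg/kg. On its brighter probe set the level ran from 5.13 to 6.25 (median 5.98) in vehicle livers, from 5.24 to 6.21 (median 6.00) at 0.0485 mg/kg and from 4.86 to 6.21 (median 5.66) at 0.485 mg/kg. It ran from 5.56 to 6.54 (median 5.75) at 4.85 mg/kg, from 7.46 to 8.06 (median 7.67) at 48.5 mg/kg and from 7.94 to 9.59 (median 8.49) at 485 mg/kg. The groups up to 4.85 mg/kg overlapped and lay wholly below the animals at 48.5 mg/kg, while the 48.5 and 485 mg/kg groups overlapped each other, with 4 of the 6 animals at 485 mg/kg above the highest at 48.5 mg/kg. The difference from vehicle was 1.82 ± 0.23 at 48.5 mg/kg (3.53-fold) and 2.67 ± 0.23 at 485 mg/kg (6.35-fold). The step from 4.85 to 48.5 mg/kg was 1.80 ± 0.23 and that from 48.5 to 485 mg/kg 0.85 ± 0.23. Snx10 ranked 5th by size of increase among the named genes at 48.5 mg/kg and 8th at 485 mg/kg.

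The other Snx10 probe set showed the same order of groups at the top with smaller differences. Its mean over the 36 arrays was 6.578, against 6.583 for the first, and that mean includes the doses that chose the gene. In vehicle livers it was the higher of the pair, with a mean of 6.03 against 5.88. Its level at 48.5 mg/kg ran from 6.87 to 7.54 (median 7.28) and at 485 mg/kg from 7.14 to 9.37 (median 8.23), against 5.80 to 6.42 (median 5.98) in vehicle. The differences from vehicle were 1.21 ± 0.23 (2.31-fold) at 48.5 mg/kg and 2.14 ± 0.23 (4.42-fold) at 485 mg/kg. Over the 36 arrays the levels from the pair of probe sets had a correlation of 0.95, which fell to 0.73 once each value was centred on its dose group. Inside single groups (n = 6 each) it ran from 0.10 at 48.5 mg/kg to 0.95 at 485 mg/kg, where replicate 2 was highest on both probe sets.

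Ttc39a was the dimmest of the 4 genes and stood clear of vehicle only at 485 mg/kg. Its level ran from 3.51 to 4.47 (median 3.90) in vehicle livers, from 3.74 to 4.13 (median 3.96) at 0.0485 mg/kg and from 3.75 to 4.21 (median 4.004) at 0.485 mg/kg. It ran from 3.75 to 4.27 (median 4.03) at 4.85 mg/kg, from 4.02 to 4.84 (median 4.43) at 48.5 mg/kg and from 5.85 to 6.57 (median 6.18) at 485 mg/kg. At 48.5 mg/kg 2 of 6 animals exceeded the highest vehicle animal, and at 485 mg/kg all 6 exceeded every animal of every other group. The highest vehicle animal, replicate 2, was at 4.47. The next, replicate 3, was at 3.99, below all 6 animals at 48.5 mg/kg. The difference from vehicle was 0.50 ± 0.13 at 48.5 mg/kg (1.41-fold) and 2.28 ± 0.13 at 485 mg/kg (4.84-fold), with a step of 1.78 ± 0.13 between these doses. Its rank by size of increase was 120th among the named genes at 48.5 mg/kg and 11th at 485 mg/kg. In every animal below 485 mg/kg the level was under 5.31, the lowest of the 36 array medians, so these values lie in the dim range of the array. Its fold changes, ranks and the share present at 48.5 mg/kg are therefore set against a dim level, and the folds may be understated.

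Hdc was the only one of the 4 genes whose highest mean was not at the top dose. Its level ran from 5.32 to 6.94 (median 6.80) in vehicle livers, from 6.92 to 8.34 (median 7.61) at 0.0485 mg/kg and from 6.38 to 7.88 (median 7.07) at 0.485 mg/kg. It ran from 6.26 to 7.61 (median 6.85) at 4.85 mg/kg, from 7.70 to 9.02 (median 8.05) at 48.5 mg/kg and from 7.18 to 8.38 (median 7.66) at 485 mg/kg. Both top groups lay wholly above vehicle, but both overlapped the 0.0485 and 0.485 mg/kg groups and each other, and 485 mg/kg also overlapped 4.85 mg/kg. Mean levels were 8.18 ± 0.49 at 48.5 mg/kg and 7.74 ± 0.44 at 485 mg/kg, against 6.51 ± 0.63 in vehicle (SD, n = 6 each). The difference from vehicle was 1.67 ± 0.29 (3.19-fold) at 48.5 mg/kg and 1.24 ± 0.29 (2.36-fold) at 485 mg/kg, while the step from 48.5 to 485 mg/kg was -0.44 ± 0.29. By size of increase Hdc ranked 8th among the named genes at 48.5 mg/kg and 60th at 485 mg/kg. When the 18 animals of the 3 lower doses took the place of vehicle, a comparison added after the values were seen, the Hdc difference was 0.96 at 48.5 mg/kg and 0.52 at 485 mg/kg. The same comparison gave 1.09 and 2.67 for Zdhhc2, 1.90 and 2.75 for Snx10, and 0.44 and 2.21 for Ttc39a.

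**Figure D1:**
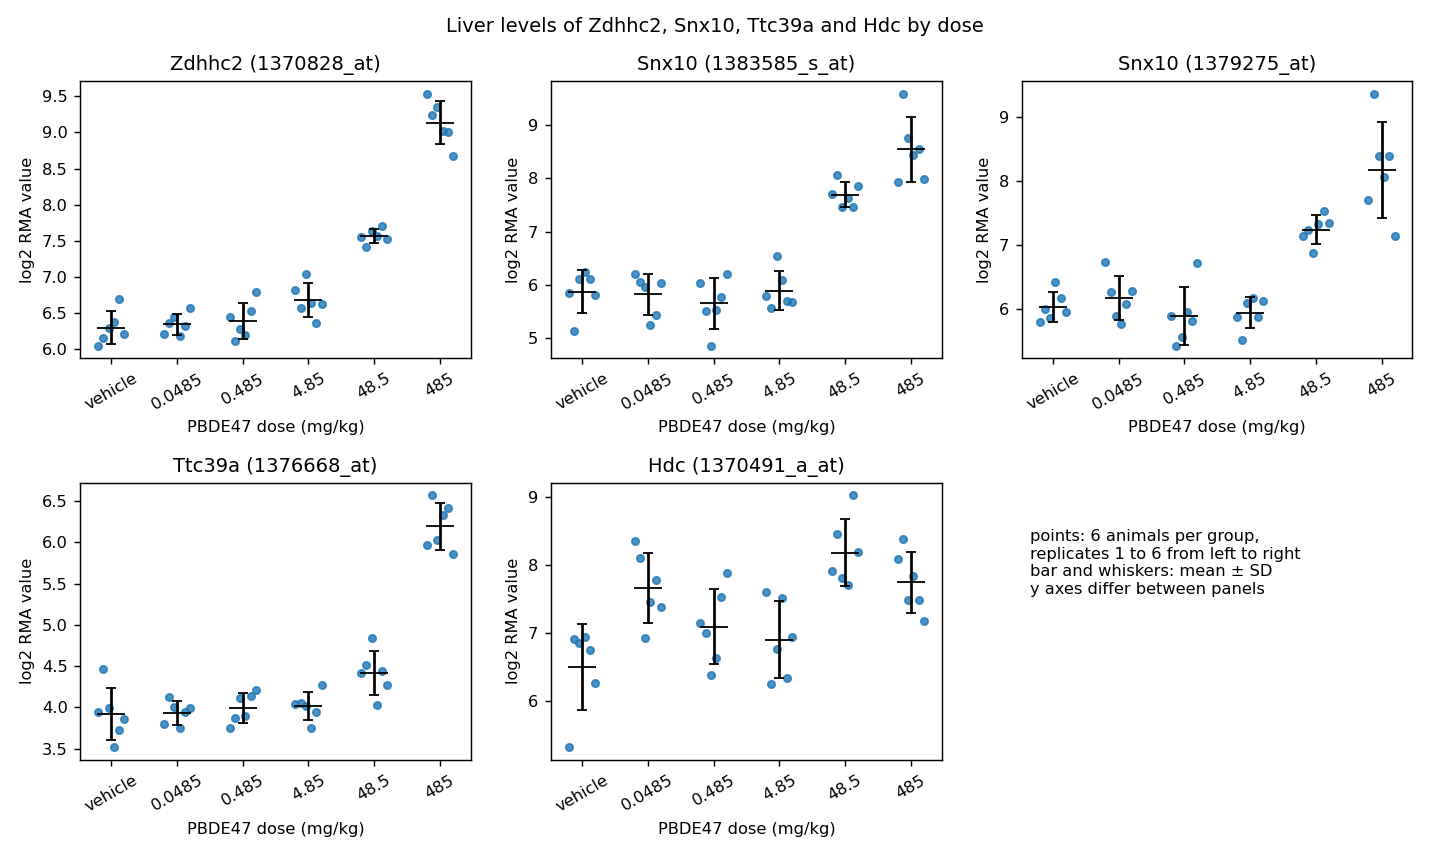
Level of each probe set of Zdhhc2, Snx10, Ttc39a and Hdc (y axis, log2 RMA value) in each of 36 animals by PBDE47 dose (x axis, mg/kg), with the mean and SD of each group of 6. Zdhhc2 and both Snx10 probe sets stand clear of vehicle from 48.5 mg/kg and Ttc39a at 485 mg/kg, while Hdc is highest at 48.5 mg/kg and its 0.0485 mg/kg animals overlap those of both top doses.

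Whether any of the 4 genes changed below the doses that chose them was tested with limma, in a model over all 36 arrays with Benjamini-Hochberg adjustment over 31042 probe sets. The differences from vehicle and the slopes used the same vehicle animals as the choice of the genes. They are therefore not independent of that choice, whereas the steps between the lower doses did not use the vehicle animals. At 0.0485 and at 0.485 mg/kg 0 probe sets of the whole array (0%) reached an adjusted p below 0.05, and 1519 and 1381 had an unadjusted p below 0.05. At 4.85 mg/kg 6 did (0.0193%), with 2006 below 0.05 unadjusted. None of the 5 probe sets was among them. The ordinary test of the same model called 0, 0 and 6 probe sets.

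The nearest to a call at 4.85 mg/kg was Zdhhc2, whose mean of 6.68 ± 0.23 (SD) stood 0.38 ± 0.12 (SE) above vehicle, with a 95% interval of 0.14 to 0.63. Its unadjusted p was 0.0031 and its limma adjusted p 0.496, and 2 of 6 animals exceeded the highest vehicle animal. Against 0.485 mg/kg the 4.85 mg/kg mean of Zdhhc2 was 0.29 ± 0.12 higher (adjusted p = 0.697). Its slope from vehicle to 4.85 mg/kg was 0.12 ± 0.04 per dose step over 24 arrays (adjusted p = 0.817). Differences from vehicle of 0.05 and 0.10 (both ± 0.12) at 0.0485 and 0.485 mg/kg had adjusted p values of 0.9999 and 0.9997.

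Hdc had the largest of these differences at the lowest dose. At 0.0485 mg/kg its mean was 7.66 ± 0.52, against 6.51 ± 0.63 in vehicle (SD), a difference of 1.15 ± 0.29 (SE) or 2.23-fold, with a 95% interval of 0.57 to 1.74. The unadjusted p was 0.0003, the limma adjusted p was 0.709, and 5 of 6 animals lay above the highest vehicle animal. The increase ranked 3rd among the named genes in that comparison, yet it did not pass the test over all probe sets. One vehicle animal, replicate 1, had the lowest level of all at 5.32, and without it the difference was 0.92. At 0.485 mg/kg the difference was 0.59 ± 0.29 (unadjusted p = 0.0493, adjusted p = 0.9997) with 4 of 6 animals above the highest vehicle animal. At 4.85 mg/kg it was 0.40 ± 0.29 (adjusted p = 0.893) with 2 of 6. The Hdc means were 7.66, 7.09 and 6.90 at these 3 doses. The step of -0.57 ± 0.29 from 0.0485 to 0.485 mg/kg (adjusted p = 0.9992) and that of -0.19 ± 0.29 from 0.485 to 4.85 mg/kg (adjusted p = 0.941) did not pass the test. Over the whole array these 2 steps gave 0 calls (0%) and 4 calls (0.0129%), with 1030 and 2041 unadjusted p values below 0.05.

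Differences of Snx10 and Ttc39a from vehicle at the lower doses were smaller than their standard errors. Snx10 differed from vehicle by -0.05, -0.22 and 0.02 (each ± 0.23) at 0.0485, 0.485 and 4.85 mg/kg, with adjusted p values of 0.9999, 0.9997 and 0.9953. The 95% interval at 4.85 mg/kg ran from -0.45 to 0.48. Ttc39a differed from vehicle by 0.02, 0.08 and 0.10 (each ± 0.13) at the same doses, with an adjusted p of 0.962 at 4.85 mg/kg. Slopes from vehicle to 4.85 mg/kg were -0.01 per dose step for Snx10 (adjusted p = 0.998), 0.03 for Ttc39a (adjusted p = 0.974) and 0.06 for Hdc (adjusted p = 0.989). The trend called 2 probe sets of the whole array (0.00644%), with 1740 unadjusted p values below 0.05 and 0 calls by the ordinary test.

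The dose at which a rise starts was taken as the lowest at which, and above which, all 6 animals exceeded every vehicle animal. By this rule Zdhhc2, both probe sets of Snx10 and Hdc started at 48.5 mg/kg and Ttc39a at 485 mg/kg. For Hdc, however, 5 of 6 animals at 0.0485 mg/kg and 4 of 6 at 0.485 mg/kg also exceeded every vehicle animal. Its lowest animal at 0.0485 mg/kg was at 6.92, against 6.94 for the highest vehicle animal. The start of Hdc is therefore less clear than that of Zdhhc2 and Snx10. The later start of Ttc39a depended on vehicle replicate 2 (4.47). The next highest vehicle animal (3.99) lay below all animals at 48.5 mg/kg. Of all probe sets, 33 had a start of 4.85 mg/kg, 346 a start of 48.5 mg/kg and 955 a start of 485 mg/kg, while 29708 had none. Taken dose by dose, the probe sets lying wholly above vehicle numbered 86 for 4.85 mg/kg (0.277%), 473 for 48.5 mg/kg (1.52%) and 1334 for 485 mg/kg (4.3%). Calls over the whole array at 48.5 mg/kg were 797 higher (2.57%) and 255 lower (0.821%), and at 485 mg/kg 2424 higher (7.81%) and 2241 lower (7.22%). As the 4 genes were picked for these differences, nothing is read from their place among them.

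Set beside 4 drug metabolism probe sets, picked because they were known to respond, the genes started by this rule at the same dose as Cyp1a1 and Nqo1 or later. For Hdc the limit given above applies. The probe set shared by Cyp2b1 and Cyp2b2, cytochromes P450 induced by phenobarbital-like compounds, and Abcc3, an efflux transporter, started at 4.85 mg/kg. Cyp1a1, a target of the aryl hydrocarbon receptor, and Nqo1, a quinone reductase, started at 48.5 mg/kg. At 4.85 mg/kg, however, 5 of 6 animals already exceeded the highest vehicle animal for Cyp1a1 and 4 of 6 for Nqo1. The same count was 2 of 6 for Zdhhc2, 1 for Snx10, 0 for Ttc39a and 2 for Hdc. Of the log2 difference from vehicle at 485 mg/kg, 44.7% was present at 48.5 mg/kg for Zdhhc2, 68.2% for Snx10, 22.0% for Ttc39a and 135% for Hdc. On the other Snx10 probe set it was 56.5%. The same share was 94.7% for the CYP2B joint probe set, 71.8% for Abcc3, 43.3% for Cyp1a1 and 51.4% for Nqo1. The CYP2B joint probe set averaged 14.25 at 48.5 mg/kg and 14.44 at 485 mg/kg, among the brightest values of the array. Whether the bright range limits its last step was not tested. These comparisons share the vehicle animals, so the shares are set side by side as values.

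**Figure D2:**
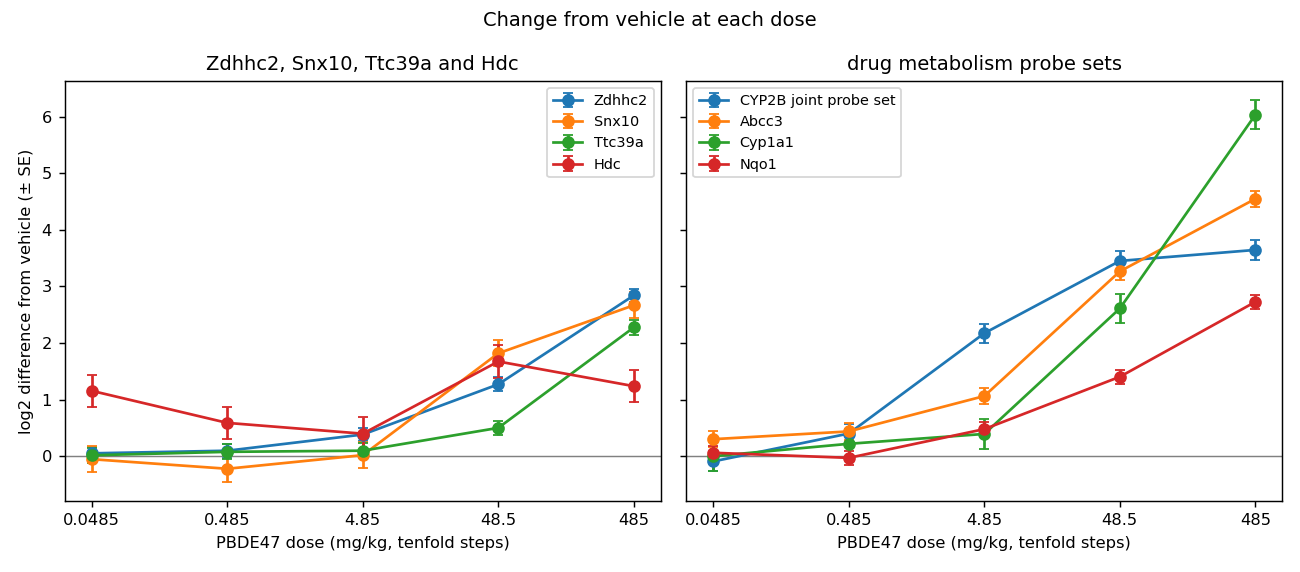
Difference from vehicle (y axis, log2, ± SE) at each PBDE47 dose (x axis, mg/kg) for Zdhhc2, Snx10, Ttc39a and Hdc (left) and 4 drug metabolism probe sets (right). Hdc is at 1.15 at the lowest dose, 0.40 at 4.85 mg/kg and 1.67 at 48.5 mg/kg, whereas Ttc39a is at 0.50 at 48.5 mg/kg and 2.28 at 485 mg/kg.

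The 4 genes varied among animals of one dose more than most of the array. The pooled standard deviation within dose groups was 0.54 for Hdc, 0.43 for Snx10, 0.24 for Ttc39a and 0.22 for Zdhhc2, against a median of 0.14 over all probe sets. These values were larger than those of 99.3%, 98.6%, 92.1% and 89.7% of probe sets. The 4 drug metabolism probe sets also varied more than most, at 0.48 for Cyp1a1, 0.32 for the CYP2B joint probe set, 0.27 for Abcc3 and 0.23 for Nqo1. At 485 mg/kg replicate 6 had the lowest level of Zdhhc2, Ttc39a and Hdc and the lowest but 1 of Snx10, and it was also lowest for the CYP2B joint probe set and Abcc3, but 4th from the lowest for Cyp1a1 and 2nd for Nqo1. Replicate 2 of that group was highest for Snx10, Ttc39a, Hdc, the CYP2B joint probe set, Abcc3 and Cyp1a1, and placed 4th from the lowest for Zdhhc2 and Nqo1.

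Whether the genes moved together from animal to animal was tested on values centred on their dose group, by a two-sided permutation test within dose groups over 36 animals (100000 resamples, Benjamini-Hochberg adjustment over 6 pairs). Zdhhc2 and Hdc had a Pearson correlation of 0.43 (p = 0.0154, adjusted p = 0.0841) and a Spearman correlation of 0.38. Zdhhc2 and Snx10 had 0.41 (p = 0.0421, adjusted p = 0.0841) and a Spearman correlation of 0.41. Snx10 and Hdc had 0.36 (p = 0.0415, adjusted p = 0.0841) and a Spearman correlation of 0.36, with a positive value inside each of the 6 groups. None of the pairs passed after adjustment. Without the 2 animals farthest from the median on the first gene, the Pearson values were 0.39, 0.34 and 0.23. Inside single groups the Zdhhc2 and Snx10 pair had values from -0.96 at 48.5 mg/kg to 0.77 at 4.85 mg/kg (n = 6 each). The pairs with Ttc39a had 0.06 for Zdhhc2, 0.00 for Snx10 and 0.13 for Hdc (adjusted p = 0.912, 0.995 and 0.755).

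Genes whose level followed each of the 4 most closely over the 36 arrays are named as a description, since all points share the dose. Closest to Zdhhc2 were Htatip2, Ces2c (a carboxylesterase) and Cndp2 (a dipeptidase), each at a correlation of 0.96. Closest to Snx10 were Vps26a, a subunit of the retromer complex, at 0.95, and Vav2 and Ces2c, both at 0.93. Ttc39a was followed most closely by Sod2 (mitochondrial superoxide dismutase) at 0.96, Prdx3 (a mitochondrial peroxiredoxin) at 0.95 and Tkt (transketolase) at 0.94. Hdc had weaker matches, with Rpl6 at 0.82, Umps (an enzyme of pyrimidine synthesis) at 0.81 and Rpl3 at 0.79; Rpl6 and Rpl3 encode ribosomal proteins. With dose group means removed the closest genes were others: Dnase1l3, Arpc3 and Zwilch for Zdhhc2 (each 0.61), and Krtcap3, Dst and Stx3 for Snx10 (0.68, 0.63 and 0.62). For Ttc39a they were Tmem39a, Tsfm and Ssna1 (0.62, 0.61 and 0.61), and for Hdc Atf5, a transcription factor, Mmachc and Cct7 (0.79, 0.77 and 0.75).

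Most other palmitoyltransferases did not pass the test at the top dose. Of 17 other DHHC palmitoyltransferases measured, 0 were called higher and 2 lower at 485 mg/kg, with a median change of -0.05 against -0.01 over all named genes. Over all probe sets at this dose 7.81% were called higher and 7.22% lower, so a count of 2 of 17 lower is near that background. The fallen members were Zdhhc23, at 6.55 against 7.22 in vehicle, a difference of -0.67 ± 0.11 (limma adjusted p = 1.73e-05), and Zdhhc14, at -0.28 ± 0.09 (adjusted p = 0.0264). Of 8 depalmitoylating enzymes, which remove the same lipid, 1 fell, Abhd10 by 0.24 on the log2 scale (adjusted p = 0.0269), which is also near the 7.22% of all probe sets. The calls of Zdhhc14 and Abhd10 were lost in 6 and 8 of 19 alternatives, most of which left out 1 animal, with adjusted p up to 0.0641 and 0.125. At 48.5 mg/kg none of either list was called.

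Among 24 other sorting nexins, 4 were called higher and 4 lower at 485 mg/kg, with a median of 0.02, beside 7.81% higher and 7.22% lower over all probe sets. Snx24 changed by -0.60 ± 0.08 (limma adjusted p = 2.36e-07), Snx11 by -0.40 ± 0.12 (adjusted p = 0.0230) and Snx19 by -0.30 ± 0.08 (adjusted p = 0.00536). Snx9, which acts in endocytosis, changed by 0.27 ± 0.06 (adjusted p = 0.00114). Of 17 subunits and accessory proteins of the vacuolar proton pump, 8 were called higher and 0 lower, with a median of 0.18, beside the same 7.81% and 7.22%. Among them Atp6v1g1 rose by 0.55 ± 0.06 (adjusted p = 2.66e-09), Atp6v1a by 0.43 ± 0.06 (adjusted p = 2.16e-06), Atp6v1d by 0.30 ± 0.05 (adjusted p = 7.91e-05) and Atp6v1h by 0.26 ± 0.08 (adjusted p = 0.0274). At 48.5 mg/kg no other sorting nexin was called, and Atp6v1a and Atp6v1d were the pump subunits called, at 0.28 ± 0.06 and 0.19 ± 0.05 (adjusted p = 0.00590 and 0.0383), or 2 of 17 beside 2.57% of all probe sets. The calls of Snx11 and Atp6v1h at 485 mg/kg and of Atp6v1d at 48.5 mg/kg were lost in 6, 5 and 9 of 19 alternatives, with adjusted p up to 0.0935, 0.0977 and 0.199.

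The TTC39 list held 2 other measured genes, of which Ttc39b is known from cholesterol metabolism in mouse. Ttc39c was at 8.69 at 485 mg/kg, against 8.32 in vehicle, a difference of 0.37 ± 0.08 (limma adjusted p = 0.000726). Ttc39b was at 7.62 at 485 mg/kg, against 7.47 in vehicle, a difference of 0.15 ± 0.07 that did not pass (adjusted p = 0.153).

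Of 13 other genes of histamine and amine handling, 2 were called higher and 0 lower at 485 mg/kg, with a median of 0.00, beside 7.81% higher and 7.22% lower over all probe sets. Ddc, which makes dopamine and serotonin rather than histamine, was at 11.31 at 485 mg/kg and 11.01 at 48.5 mg/kg, against 10.25 in vehicle. Its differences from vehicle were 1.06 ± 0.09 (limma adjusted p = 4.47e-11) and 0.76 ± 0.09 (adjusted p = 6.60e-07). Maoa, a monoamine oxidase, changed by 0.46 ± 0.05 at 485 mg/kg (adjusted p = 1.11e-08). Hnmt, which inactivates histamine by methylation, stood at 2.99 at 485 mg/kg and 2.99 in vehicle, in the dim range of the array. At the 3 lower doses 0 genes of these 6 lists were called by limma.

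**Figure D3:**
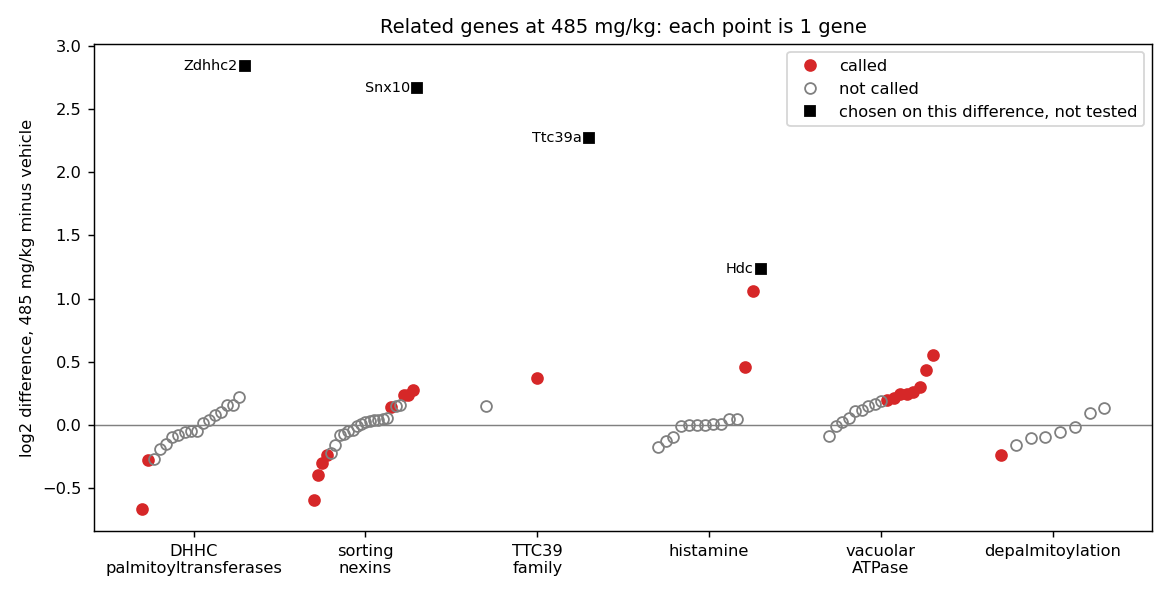
Difference between 485 mg/kg and vehicle (y axis, log2) for each measured gene of 6 lists (x axis). Filled circles passed the test, open circles did not, and squares are the 4 genes chosen on this difference, which lie at 2.84, 2.67, 2.28 and 1.24; the largest other value is 1.06 for Ddc.

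The tissue label matched its markers, since 8 hepatocyte markers averaged 14.06 at 485 mg/kg and 14.24 in vehicle, among the brightest values of the array. Of these, 6 of 8 were called lower at 485 mg/kg, with changes no further from 0 than -0.31, and 2 of 8 (Cps1 and Fgb) at 48.5 mg/kg, beside 7.22% and 0.821% of all probe sets. The calls of Cps1 and Fgb at 48.5 mg/kg were lost in 1 and 8 of 19 alternatives, with adjusted p up to 0.0951 and 0.187. Mast cell markers, relevant to Hdc, had a list mean per animal of 4.67 to 4.82 at 485 mg/kg and 4.78 to 4.90 at 48.5 mg/kg, against 4.78 to 4.99 in vehicle. Of the 10 measured, 6 lay below 5.31 in the mean of every group and 0 were called higher at any dose. Over all probe sets 7.81% were called higher at 485 mg/kg and 2.57% at 48.5 mg/kg, so 0 of 10 is near that background. Cpa3 (-0.48) and Hpgds (-0.35) were called lower at 485 mg/kg, or 2 of 10 beside 7.22% of all probe sets. The call of Hpgds had an adjusted p up to 0.0809 when 1 animal was left out. At 0.0485 mg/kg, where Hdc averaged 7.66, the mast cell mean was 4.83 ± 0.05, against 4.86 ± 0.08 in vehicle (SD). In whole liver, fewer cells of a type and less RNA per cell cannot be told apart.

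Kupffer cell and macrophage markers had a list mean per animal of 8.26 to 8.88 at 485 mg/kg, against 8.94 to 9.18 in vehicle. It ran from 8.34 to 9.13 at 48.5 mg/kg and from 8.35 to 9.25 at 4.85 mg/kg. At 0.485 mg/kg it ran from 8.40 to 9.18 and at 0.0485 mg/kg from 8.81 to 9.47, so every treated group overlapped the top dose. At 485 mg/kg 4 of 9 were called lower (Clec4f, Cd163, Csf1r and C1qb), beside 7.22% of all probe sets. The calls of C1qb and Clec4f were lost in 12 and 1 of 19 alternatives, with adjusted p up to 0.131 and 0.0527. No neutrophil marker of 6 was called at any dose, and 4 of the 6 lay below 5.31 in the mean of each group. At 485 mg/kg 7.81% of all probe sets were called higher and 7.22% lower, so 0 of 6 is near that background. The 5 cholangiocyte markers had a list mean of 5.66 at 485 mg/kg, against 5.64 in vehicle, with a median change of -0.12. Of these, Epcam alone was called, higher by 0.60 at 485 mg/kg and 0.40 at 48.5 mg/kg. That is 1 of 5, beside 7.81% and 2.57% of all probe sets called higher at these doses. The call at 48.5 mg/kg was lost in 3 of 19 alternatives with adjusted p up to 0.0569. The part of these shifts in the levels of the 4 genes was not tested. As a sign of RNA quality, the 3′ control level minus the 5′ one averaged 1.15 to 1.26 for beta-actin, 1.16 to 1.23 for hexokinase and -0.14 to -0.05 for GAPDH over the 6 groups.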

How the data were processed

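Livers of 36 rats were measured on 1 array each. The deposited values are log2 signals per probe set that the authors made with RMA and the affy package, per the submitters' processing notes (versions not given). RMA quantile-normalises arrays, so a value is relative to a shared distribution, and dim probe sets can understate a fold. The number of arrays, not a read depth, limits precision. Array medians lay between 5.31 and 5.38.

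Of the deposited probe sets, 57 controls were left out and 31042 tested without a filter: 20826 had 1 gene in the platform table, 436 several and 9780 none here. The brightest probe set of a gene by mean over 36 arrays represented it. Counts of called genes in a list are per gene. The shares set beside them are over all 31042 probe sets, including those without a gene, and so differ in unit. A linear model with 1 term per dose group was fitted to all 36 arrays in limma 3.58.1 (R 4.3.3) with eBayes (30 residual and 5.26 prior degrees of freedom), two-sided, with Benjamini-Hochberg adjustment, and a call was an adjusted p below 0.05. The submitters used R/maanova, which was not run here; the ordinary test stood in. Permutation tests, motif searches and correlations used numpy 2.4.6, pandas 2.3.3 and scipy 1.17.1. The procedure was tested on simulated data.

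The 4 genes and all lists (DHHC palmitoyltransferases, sorting nexins, TTC39 family, histamine, vacuolar proton pump, depalmitoylation and 5 marker lists) were chosen with earlier results of these data known. Up to 4 called genes of a list with the largest change were named, all genes of lists with under 5 measured, and the 3 genes closest to each of the 4 by correlation. Promoters of 3 of the 4 genes were matched by symbol. Alternatives were the replicate number as a block, further normalisation, centring, a filter on dim probe sets, the ordinary test, array weights, only the 12 arrays compared, averaging the probe sets of a gene, each array left out, and the lower doses in place of vehicle.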

Additional observations from a re-analysis of the deposited data

How the results depend on the processing

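Over 480 alternatives for 24 tested differences, steps and slopes of the 4 genes, 0 gave a call and 24 changed sign. Hdc at 0.0485 mg/kg lay between 0.92 and 1.30 (adjusted p at least 0.544) and Zdhhc2 at 4.85 mg/kg kept an adjusted p of at least 0.311. The mean of both probe sets gave 0.0419 for Snx10 at 0.0485 mg/kg and -0.0355 at 4.85 mg/kg, and array weights gave -0.0161 for Ttc39a at 0.0485 mg/kg. With each array left out in turn, the difference from vehicle at 0.0485 mg/kg ran from -0.00011 to 0.130 for Zdhhc2, -0.203 to 0.0619 for Snx10 and -0.0655 to 0.126 for Ttc39a. It ran from -0.0049 to 0.186 for Ttc39a at 0.485 mg/kg and from -0.132 to 0.0913 for Snx10 at 4.85 mg/kg. The step from 0.0485 to 0.485 mg/kg ran from -0.0335 to 0.101 for Zdhhc2, the step from 0.485 to 4.85 mg/kg from -0.0315 to 0.0724 for Ttc39a, and the slope to 4.85 mg/kg from -0.0540 to 0.0119 for Snx10 and -0.0298 to 0.112 for Hdc. Called probe sets ran from 678 (without 48.5 mg/kg replicate 5) to 1138 at 48.5 mg/kg, from 1 to 6 for the step from 0.485 to 4.85 mg/kg, and from 1 to 3 for the trend. With only the 12 arrays compared, 1 probe set was called at 4.85 mg/kg and 556 at 48.5 mg/kg, from fewer samples. The ordinary test called 2 for the step from 0.485 to 4.85 mg/kg and 0 for the trend. With the 18 lower-dose arrays in place of vehicle, chosen after the values were seen, Zdhhc2 at 48.5 mg/kg was 1.09 and Hdc 0.96 and 0.52 at 48.5 and 485 mg/kg. Same-numbered arrays correlated between -0.17 and 0.23 in their deviations over 30 pairs with vehicle, 8 of them over 0.1, and 5 arrays correlated best with their own number, so the numbers name animals and do not pair them. With the replicate number as a block, 7 probe sets were called for the step from 0.485 to 4.85 mg/kg, the correlation of Zdhhc2 and Hdc was 0.56 (permutation adjusted p = 0.00708) and that of Snx10 and Ttc39a -0.0551. Median centring gave -0.0448 for the same pair. For the 31 named results of related genes and markers, 64 of 589 alternatives lost the call, in 11 of them: Atp6v1d, Cps1, Fgb and Epcam at 48.5 mg/kg, and Zdhhc14, Snx11, Atp6v1h, Abhd10, Hpgds, Clec4f and C1qb at 485 mg/kg. The cause was not tested. The filter on dim probe sets left out Ttc39a, and a gene with 1 probe set has no mean of probe sets. Dim signal limits Ttc39a below 485 mg/kg.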
